A study of Mus musculus with 12 samples.

Results

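The average effect of 5-aza-2'-deoxycytidine (DAC) was measured across all genes by comparing the 6 libraries of B16F10 cells that received DAC with the 6 that did not, out of 12 in the series. B16F10 is a pigmented mouse melanoma cell line. The libraries with DAC were the DAC group (25 nM for 72 h) and the DAC+SFN group (the same DAC, with sulforaphane, SFN, present for the last 48 h), and those without it were the DMSO control and SFN alone (48 h), with 3 replicates in each of the 4 groups. The labels give an SFN dose of 5 nM for SFN alone and 5 µM for the combination, whereas the methods of the study give 5 µM for each. Because each group with DAC was set against the group without DAC of the same SFN status and the same replicate number, the comparison held 6 library pairs, 3 without SFN and 3 with SFN.

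DAC is a deoxycytidine analog that must be phosphorylated and built into DNA during replication, where it traps DNA methyltransferase 1 (DNMT1) in a covalent bond and lowers methylation at CpG sites as cells divide. Loss of methylation can let silent sequences be transcribed, among them germline genes and repeats whose double-stranded RNA is read by cytosolic sensors that start an interferon response. The trapped enzyme is also a DNA lesion, and such lesions can activate p53, a transcription factor that restrains the cell cycle.

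The libraries held between 15880957 and 27291436 counts on genes, and the 10 most abundant genes held between 6.03% and 7.004% of each. The melanocyte genes Tyrp1, Dct and Pmel, which encode pigment enzymes and a melanosome protein, had at least 166904, 86606 and 71350 counts in every library. Epcam, Ptprc and Cdh5, markers of epithelial, immune and endothelial cells, had at most 1, 2 and 0 counts. Other markers of these cells were detected, with 13 to 31 counts for Cdh1 (epithelial), 45 to 239 for Cd68 (immune) and up to 11 for Pecam1 (endothelial). The fibroblast marker Col1a1 had 284 to 9514 counts. Samples with the same replicate number deviated together, with correlations of 0.270 to 0.732 over 18 pairs of libraries, so the replicate number was kept in the model. Levels are given as CPM (counts per 1e+06 counts of a library) after TMM scaling, which sets libraries on a common scale through the bulk of their genes, and 1 CPM stood for 15.9 to 27.3 counts. Changes are given as log2 fold changes with their standard error (SE), and 3 levels in a row are the lowest, the median and the highest of 6 libraries. A gene was counted as changed when the Benjamini-Hochberg adjusted p-value of edgeR's quasi-likelihood F-test was under 0.05.

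DAC changed 640 of the 11638 genes tested, 5.5% of them, and more genes rose (380 genes, 3.27%) than fell (260 genes, 2.23%). Of the gene lists examined, which were chosen with earlier results of these data known, interferon-stimulated genes (40) and p53 targets (17) held the most rises. Genes of mitosis (23) and DNA replication (21) held the most falls. Most changed genes lay outside these lists. The changes were small. The median rise was 0.34 and the median fall 0.22 on the log2 scale, 83 of the genes that rose did so by more than 1.5-fold, and 18 passed a fold change of 2 (0.155% of genes tested), all of them upward. This last count was 8 without DAC replicate 3, 9 without SFN replicate 3, between 16 and 24 without any other library, 6 without all libraries of replicate number 3, 9 without those of number 1, 0 without the replicate block and 0 when glmTreat tested the fold change itself against 2. The largest estimate was 2.81-fold. Only Abhd1, an abhydrolase family gene, fell by more than 1.5-fold. It was named after its value was seen, and its mean was 1.78 ± 0.217 CPM (SD, n = 6) without DAC and 1.15 ± 0.232 CPM with it. Before adjustment, 2399 genes (20.6% of those tested) had a p-value under 0.05.

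Of the genes that rose, 363 of 380 were higher in all 6 pairs, where 8.84% of all genes tested were, and 243 of the 260 that fell were lower in all 6, against 8.6% of all genes. The test compares libraries within these pairs, so genes that pass it tend to move one way in all pairs, and these counts are a description. Levels overlapped between the groups for nearly all of them. All 6 libraries with DAC lay above all 6 without it for 14 of the 380 genes and below them for 15 of the 260. Over all genes tested, 17 lay above (0.146%) and 19 below (0.163%). When the replicate number was left out of the model, 1 gene passed, the p53 target Trp53inp1. With all libraries of replicate number 1, 2 or 3 left out, 33, 139 and 592 genes passed. Leaving out a single library gave 197 genes without SFN replicate 3, 203 without SFN replicate 1, 278 and 293 without DAC+SFN replicates 2 and 1, 335 and 338 without control replicates 2 and 1, 366 without DAC replicate 3 and 1163 without DAC+SFN replicate 3. At least 639 of the 640 genes kept their sign in each of the 12 fits with a single library left out. Without replicate numbers 1, 2 and 3, 640, 635 and 637 kept it. In all 12 single-library fits 166 genes passed, 127 higher and 39 lower.

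**Figure D1:**
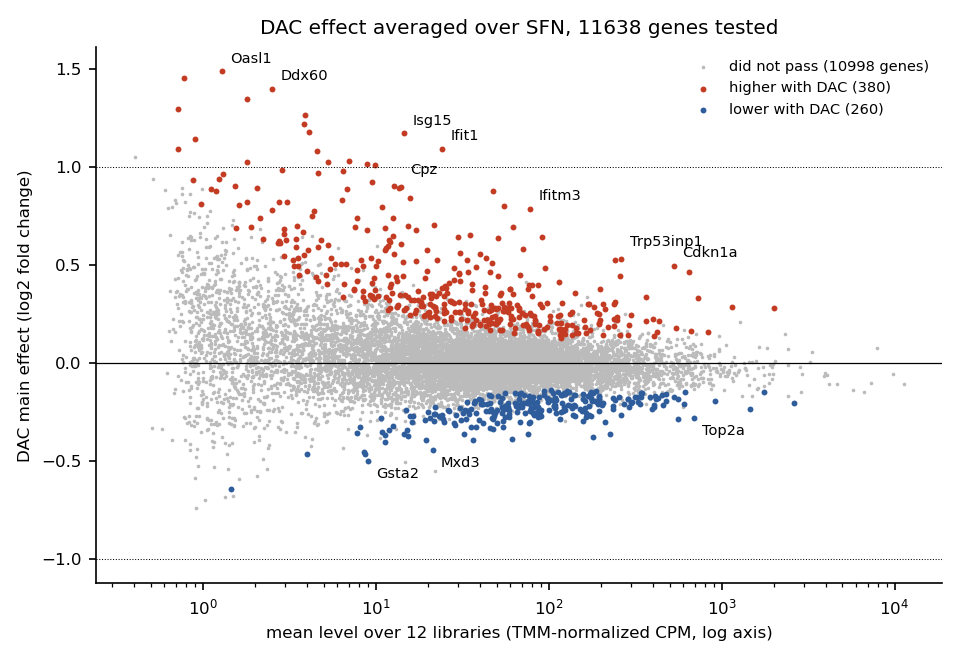
DAC main effect (log2 fold change, y axis) of the 11638 genes tested against their mean level over the 12 libraries (TMM-normalized CPM, log x axis), with genes that passed the test in red (380 higher) and blue (260 lower) and dotted lines at a 2-fold change. The genes past the upper dotted line in red are 18 low or moderately expressed genes, and no gene in blue reaches the lower line.

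Rises and falls lay at different levels of expression. The genes that rose had a median level of 28.7 CPM and those that fell a median of 80.6 CPM, against 36.8 CPM for all genes tested. Among genes with a mean of 5 to 20 CPM, 4.07% rose and 0.848% fell, and among those at 100 CPM or more, 2.9% rose and 4.62% fell. The size of the rise also declined with level, from a median log2 fold change of 0.70 among the 50 genes that rose between 1 and 5 CPM to 0.22 among the 69 at 100 CPM or more. The median SE was 0.17 in the lower of these ranges and 0.045 in the upper, so a gene of low expression needed a larger change to pass.

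**Figure D2:**
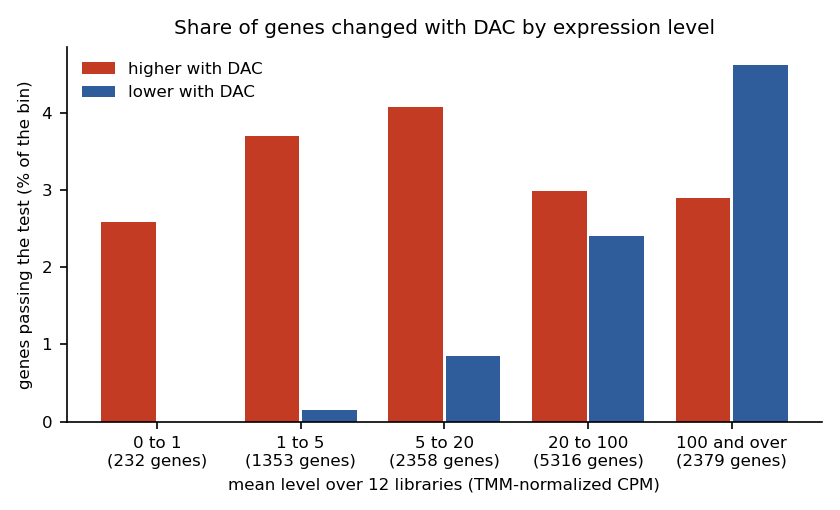
Share of genes that passed the test (y axis, percent of the genes in each range) by mean level over the 12 libraries (x axis, TMM-normalized CPM), for genes higher (red) and lower (blue) with DAC. Falls pass the rises only at 100 CPM and over, 4.62% against 2.9%.

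Interferon-stimulated genes formed the largest group of rises among the lists examined. Their products are the antiviral proteins that cells make when interferon binds its receptor and signals to the nucleus. Of 55 members tested of a list of 64, 40 rose, 0 fell and 15 did not pass, against 3.27% of all genes that rose, and their median log2 fold change was 0.68, where that of all genes tested was 0.0047. They made up 13 of the 18 genes above 2-fold. The list was chosen with results of these data known. Ifit1 (Entrez Gene 15957, chr19:34640889-34650009), which binds viral RNA that lacks a host cap mark, had 6.37, 16.9 and 20.1 CPM (lowest, median and highest of 6) without DAC and 11.7, 33.9 and 49.8 CPM with it. Its highest libraries were those of replicate 3 in the DAC and DAC+SFN groups, and the lowest library with DAC lay below the highest without it. The log2 fold change of Ifit1 was 1.09 (adjusted p = 0.000637, SE 0.14), and it was higher with DAC in 6 of 6 pairs.

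Isg15 (Entrez Gene 100038882, chr4:156199424-156200818), a ubiquitin-like protein that is conjugated to other proteins, had 3.61, 7.87 and 17.6 CPM without DAC and 8.10, 15.3 and 43.6 CPM with it. The values overlapped between the groups, and the log2 differences of its 6 pairs ran from 0.83 to 1.58. Its log2 fold change was 1.17 (adjusted p = 0.00204, SE 0.17). Ddx60, a helicase that promotes RNA sensing, had 0.344, 1.47 and 2.36 CPM without DAC and 1.15, 2.48 and 7.04 CPM with it, a log2 fold change of 1.40 (adjusted p = 0.00204, SE 0.20). The largest estimate, that of Oasl1 (Entrez Gene 231655, chr5:114923143-114937911), an oligoadenylate synthetase-like gene, rested on low levels, 0.0860, 0.837 and 0.900 CPM without DAC and 0.574, 1.70 and 3.48 CPM with it. Its log2 fold change was 1.49 (adjusted p = 0.00605, SE 0.27), with pairs from 0.51 to 1.92. Irf7, the transcription factor that amplifies type I interferon production, rose from a median of 2.25 to 3.86 CPM, a log2 fold change of 1.18 (adjusted p = 0.0023, SE 0.18).

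Members of higher expression rose as well. Ifitm3, which blocks the entry of viruses through endosomes, had 40.96, 60.1 and 65.6 CPM without DAC and 64.4, 94.7 and 149.13 CPM with it, and its log2 fold change was 0.79 (adjusted p = 0.000444, SE 0.092). Bst2, which tethers budding virions, rose by 0.69, and Rsad2, the antiviral enzyme viperin, by 0.88 on the log2 scale. The transcription factor genes Stat2 and Irf9 rose by 0.34 and 0.52. Irf1, which is induced most by interferon gamma, did not pass, with a log2 fold change of 0.02 (adjusted p = 0.889). Oas1a, Oas1g, Ifit3, Ifit3b, Trim30a and Trim30d passed too, but each has a close copy in the genome, and since only reads with a single placement were counted, how the reads of these copies were split is uncertain. Trim30d, Ifi203, a DNA sensor of the interferon-inducible family, and the carboxylesterase gene Ces2e were among the 15 largest rises with medians of 0.209 to 1.02 CPM, 0.256 to 0.755 CPM and 0.527 to 1.12 CPM.

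The interferon-stimulated genes differed between replicates more than they did with DAC. Around the mean of each gene over the 12 libraries, the median of the 55 genes stood at −0.15, −1.10 and 0.50 on the log2 scale in control replicates 1, 2 and 3, and at 0.31, −0.67 and 1.33 in the DAC replicates of the same numbers. It stood at −0.18, −0.80 and −0.027 in SFN and at 0.22, −0.35 and 0.96 in DAC+SFN. Replicate 2 was thus the lowest in every group, and the DAC library was above its partner in each of the 6 pairs, by medians of 0.47 to 1.03. Between 30 and 43 members passed when a library was left out, 11 passed without replicate number 1, and 0 passed without the replicate block. The immune marker Cd68, a lysosomal protein of macrophages, had a log2 fold change of 0.51 (adjusted p = 0.0185, SE 0.12), but the other 6 immune markers stayed under the filter, with at most 3 counts in a library and 0 counts throughout for Adgre1 and Nkg7.

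**Figure D3:**
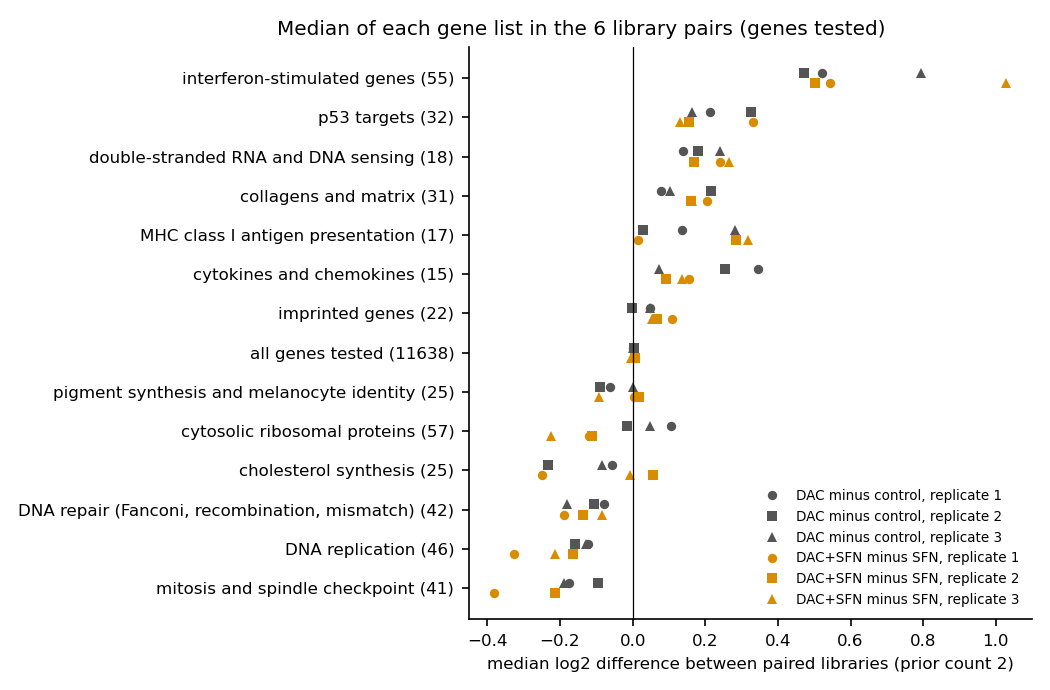
Median log2 difference (x axis, prior count of 2) between the library with DAC and its partner without DAC for 13 gene lists and for all genes tested (y axis, number of genes tested in parentheses), with the 3 pairs without SFN in grey, the 3 with SFN in orange and a marker shape for each replicate number. The interferon-stimulated and p53 lists lie right of 0 and the replication, mitosis and repair lists left of 0 in all 6 pairs, whereas all genes tested lie at 0.

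Promoters were searched for the interferon-stimulated response element (ISRE), written here as GAAA, any 2 bases and GAAA on either strand, in 300 bases around each start site (250 before and 50 after; RefSeq, GRCm38.p6, the same build as mm10). Promoter entries matched 9381 of the genes tested (80.6%) and 315 of those that rose (82.9%). The letters occurred in 10.5% of the promoters of genes that rose, in 2.8% of those of all genes tested and in 3.49% of the 27025 promoters of the table. Outside the interferon list, 14 of 285 promoters of genes that rose held it (4.91%), among them those of Cxcl10, Ddx58, Lgals9, B2m and Tmem140. Whether these genes rose as part of the same response as the interferon list was not tested. Only 42 of the 55 interferon-stimulated genes tested had an entry (76.4%), fewer than 80%, so a share over that list is void and none is given. To show what the matches look like, stretches of 4 promoters of genes that rose are printed with the matches in capitals, chr19:34640760-34640838 on the plus strand for Ifit1, chr4:156200850-156200921 on the minus strand for Isg15, chr12:26456538-26456597 on the minus strand for Rsad2 and chr19:34583348-34583441 on the plus strand for Ifit3. The capitals in Isg15 are 3 matches that overlap.
Ifit1: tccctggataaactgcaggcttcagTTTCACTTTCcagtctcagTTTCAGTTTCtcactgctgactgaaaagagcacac
Isg15: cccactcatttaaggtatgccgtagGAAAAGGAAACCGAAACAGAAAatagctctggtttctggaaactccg
Rsad2: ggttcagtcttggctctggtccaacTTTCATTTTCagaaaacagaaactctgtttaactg
Ifit3: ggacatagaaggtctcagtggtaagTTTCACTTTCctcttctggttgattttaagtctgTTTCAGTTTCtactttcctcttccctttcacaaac

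DAC acts on the methylation of CpG sites, and the CpG content of promoters was compared as well. The observed over expected CpG ratio had a median of 0.612 in the promoters of the genes that rose and of 0.783 in those of all genes tested, and it was above 0.6 in 51.4% and 75.7% of them. Without the interferon list the median of the genes that rose was 0.644, and 55.4% were above 0.6. For the genes that fell, 205 of 260 had a promoter entry (78.8%), which is under 80%, and the check was void. No methylation was measured in these libraries.

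Sensors of double-stranded RNA and DNA, which lie upstream of interferon, had smaller changes as a list. Of 18 tested, 7 rose (3.27% of all genes did) and 0 fell, with a median of 0.16. The list shares 5 tested members with the interferon-stimulated genes, and 4 of its 7 rises, Ddx60, Dhx58, Ifih1 and Irf7, are counted in both. Ddx58, which encodes the RNA sensor RIG-I, had 22.2, 39.6 and 68.4 CPM without DAC and 30.2, 66.6 and 125.27 CPM with it, a log2 fold change of 0.80 (adjusted p = 0.000555, SE 0.10). The 6 libraries with DAC overlapped with the others, and every pair was higher with DAC, by 0.44 to 1.19. Ifih1, the sensor MDA5 of long double-stranded RNA, rose by 0.70 (adjusted p = 0.00204, SE 0.10), and Dhx58, which modulates both sensors, by 0.70 (adjusted p = 0.0138, SE 0.15). Trim25, a ubiquitin ligase that activates RIG-I, rose by 0.56 (adjusted p = 0.00296, SE 0.091). Without SFN replicate 3, 6 members of the list passed, and 8 without SFN replicate 2.

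Secreted immune signals rose in 3 of 15 cytokine and chemokine genes tested, Cxcl10, Ccl5 and Lif, against 3.27% of all genes, and 0 fell. Cxcl10 (Entrez Gene 15945, chr5:92346638-92348889), a chemokine that draws T cells, had 8.92, 11.4 and 12.7 CPM without DAC and 14.5, 21.4 and 26.1 CPM with it. All 6 libraries with DAC were above all 6 without it, and its log2 fold change was 0.84 (adjusted p = 0.000555, SE 0.10). Ccl5, another T cell chemokine, had 2.15, 6.37 and 13.7 CPM without DAC and 6.04, 12.2 and 21.2 CPM with it and a log2 fold change of 0.92 (adjusted p = 0.00254, SE 0.15). Lif, a cytokine of the interleukin 6 family, rose by 0.89 (adjusted p = 0.00331, SE 0.15), with pairs between 0.21 and 1.51, and its highest library with DAC, DAC+SFN replicate 2, stood at 23.6 CPM. The count of the list was 5 without DAC+SFN replicate 3.

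Among the genes of MHC class I antigen presentation, 4 of 17 rose and 1 fell, against 3.27% and 2.23% of all genes, with a median of 0.15. The 4 were Tap1, a peptide transporter (0.65, adjusted p = 0.00905, SE 0.13), Tapbp, which couples that transporter to class I molecules (0.35, adjusted p = 0.0121, SE 0.072), B2m, the light chain of class I (0.22, adjusted p = 0.0279, SE 0.056), and Nlrc5, the transactivator of these genes (0.69, adjusted p = 0.0438, SE 0.19), and Calr, a chaperone of the endoplasmic reticulum, fell by 0.15 on the log2 scale (adjusted p = 0.048, SE 0.041). The number of rises was 1 without SFN replicate 3 and 2 without control replicate 1, control replicate 2, DAC replicate 3, SFN replicate 1 or DAC+SFN replicate 2. Of 10 checkpoint and ligand genes tested, the galectins Lgals3 and Lgals9, which bind sugars on cell surface proteins, rose by 0.53 and 0.45, which is 2 of 10 against 3.27% of all genes.

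Targets of p53 rose in 17 of 32 genes tested, against 3.27% of all genes, and fell in 0, with a median log2 fold change of 0.21. Trp53inp1 (Entrez Gene 60599, chr4:11156441-11174379), a stress protein that promotes p53 activity, had the smallest adjusted p-value of all genes. It had 176.69, 219.17 and 249.995 CPM without DAC and 255.47, 304 and 389 CPM with it. All 6 libraries with DAC were above the 6 without it, and the log2 fold change was 0.53 (adjusted p = 7.02e-06, SE 0.042). The means of the 4 groups were 186 ± 9.68 CPM (SD, n = 3) in control, 246 ± 3.95 CPM in SFN, 267 ± 14.2 CPM in DAC and 357 ± 31.8 CPM in DAC+SFN.

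Cdkn1a (Entrez Gene 12575, chr17:29090979-29100722), the cyclin-dependent kinase inhibitor p21, had 239.9, 413 and 792 CPM without DAC and 357, 581 and 964 CPM with it. The groups overlapped, with replicate 2 the highest within each of the 4 groups, and the log2 fold change was 0.50 (adjusted p = 0.00254, SE 0.078). Plk2, a kinase of the stress response, rose by 0.51 (adjusted p = 0.000303, SE 0.057), and Btg2, an antiproliferative gene, by 0.64 (adjusted p = 0.00254, SE 0.10). Ccng1, a cyclin that recruits phosphatase to MDM2, rose by 0.33 (adjusted p = 0.00204, SE 0.049), and Mdm2, the ubiquitin ligase that degrades p53, by 0.30 (adjusted p = 0.00318, SE 0.05). Tnfrsf10b, a death receptor of the ligand TRAIL, rose by 0.36 (adjusted p = 0.0023, SE 0.054). The apoptosis gene Bax did not pass, with a log2 fold change of 0.06 (adjusted p = 0.623).

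The number of p53 targets that rose was 11 without SFN replicate 3 and 11 without DAC+SFN replicate 1, and between 12 and 20 without any other library. Without replicate numbers 1, 2 and 3 it was 6, 9 and 18, and without the replicate block it was 1. The list's median lay between 0.20 and 0.24 in all of these fits.

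**Figure D4:**
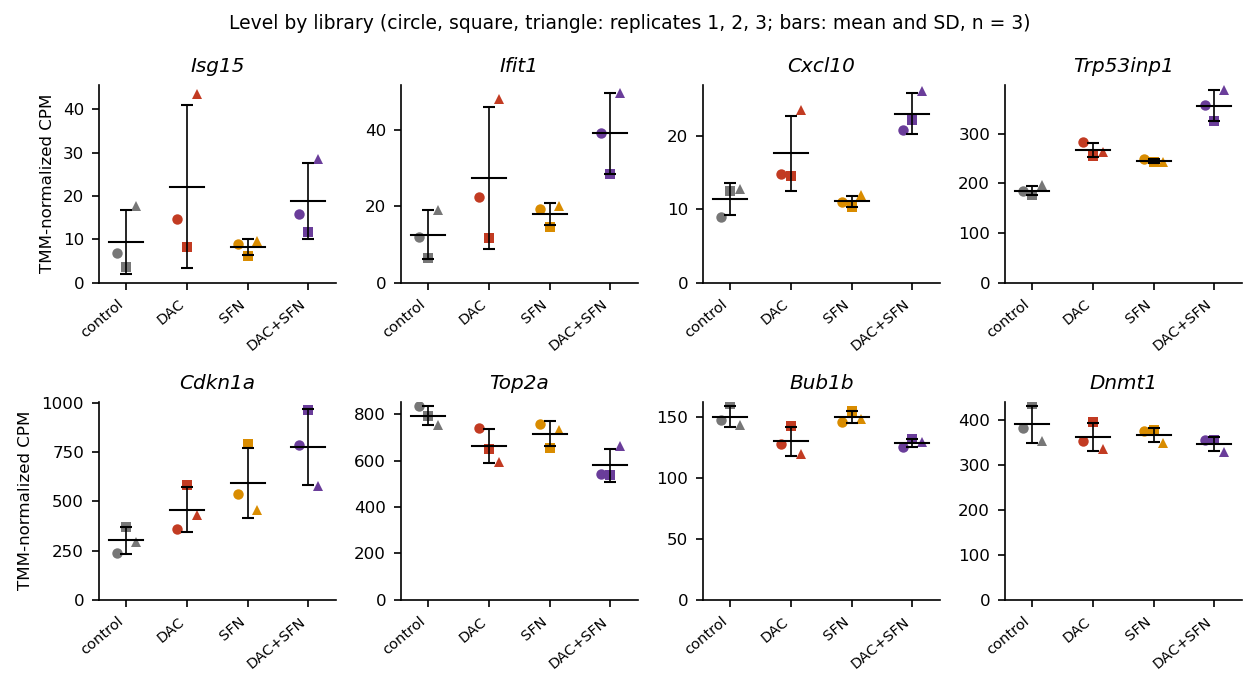
Level of 8 genes in each of the 12 libraries (y axes, TMM-normalized CPM from 0; x axes, the 4 groups), with circles, squares and triangles for replicates 1, 2 and 3 and black bars for mean and SD (n = 3). Cxcl10 and Trp53inp1 are higher in all 6 libraries with DAC than in the 6 without, Bub1b is lower in all 6, and the other genes overlap.

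Genes of DNA replication were lower with DAC. Of 46 tested, 21 fell and 0 rose, against 2.23% of all genes that fell, with a median of −0.18, and all 46 had a negative log2 fold change. Cdc45 (Entrez Gene 12544, chr16:18780447-18811972), a DNA replication factor, had 69.996, 74.1 and 87.3 CPM without DAC and 50.9, 60.01 and 72.7 CPM with it. The ranges overlapped only at their ends, and the log2 fold change was -0.30 (adjusted p = 0.00605, SE 0.055). Pcna, the sliding clamp of the polymerases, had 378, 435 and 462 CPM without DAC and 311, 375 and 407 CPM with it, a log2 fold change of -0.23 (adjusted p = 0.0157, SE 0.051). Lig1, which seals Okazaki fragments, fell by 0.26 (adjusted p = 0.0108, SE 0.051), and Pole2, a subunit of polymerase epsilon, by 0.33 (-0.33, adjusted p = 0.0154, SE 0.072). The helicase subunits Mcm4, Mcm5, Mcm6 and Mcm7 fell too, with log2 fold changes of -0.18, -0.18, -0.21 and -0.22.

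Genes of mitosis and the spindle checkpoint behaved likewise, with 23 of 41 falling and 0 rising, against 2.23% and 3.27% of all genes. Their median was −0.21. Bub1b (Entrez Gene 12236, chr2:118598202-118641592), the checkpoint kinase BUBR1, had 143.44, 148.19 and 160.56 CPM without DAC and 119.8, 128.59 and 143.05 CPM with it. All 6 libraries with DAC lay below the 6 without it, and the log2 fold change was -0.21 (adjusted p = 0.00603, SE 0.039). Top2a (Entrez Gene 21973, chr11:98992947-99024199), the topoisomerase that untangles chromosomes, had 656, 757 and 838 CPM without DAC and 537, 623 and 743 CPM with it, with overlapping ranges and a log2 fold change of -0.28 (adjusted p = 0.0137, SE 0.059). Plk1 and Aurka, kinases of mitotic entry, fell by 0.24 (adjusted p = 0.00848, SE 0.046) and 0.22 (-0.22, adjusted p = 0.0138, SE 0.047), and Nuf2, a kinetochore subunit, by 0.31 (-0.31, adjusted p = 0.00605, SE 0.056). The proliferation marker Mki67 had a log2 fold change of -0.22 (adjusted p = 0.0269, SE 0.053). Members that did not pass included Cdk1, Ccnb1 and Foxm1 (-0.19, -0.18 and -0.13), and Pttg1, securin, which had 0.10. In these bulk samples, fewer cells in a phase of the cycle and less RNA per cell cannot be told apart.

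The call for these lists depended on single libraries. For replication genes, 3 fell without SFN replicate 1 or SFN replicate 3, 6 and 7 without DAC+SFN replicates 1 and 2, 8 and 10 without control replicates 2 and 1, and 12 without DAC replicate 3. For mitosis genes the counts were 4 without SFN replicate 3, 5 without SFN replicate 1, 10 and 12 without DAC+SFN replicates 2 and 1, 12 and 15 without control replicates 1 and 2, and 15 without DAC replicate 3. With all of replicate number 1 left out, 1 replication gene and 0 mitosis genes passed, without replicate number 2 there were 2 and 5, and without the replicate block 0 and 0. The medians lay between −0.21 and −0.16 for replication and between −0.25 and −0.18 for mitosis in all these fits.

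Of the mitosis genes tested, 34 of 41 had a promoter entry (82.9%). The cell cycle genes homology region, written TTTGAA on either strand, occurred in 70.6% of these and in 11.6% of the promoters of all genes tested, and the letters CCAAT on either strand in 76.5% and 39.4%. Over the 27025 promoters of the table the shares were 18.1% and 37.9%. For replication genes, 36 of 46 had an entry (78.3%), and the check was void. Stretches of 2 promoters of genes that fell are printed with TTTGAA or its reverse complement in capitals, chr9:70421691-70421746 on the minus strand for Ccnb2, a cyclin of mitosis that fell by 0.25 on the log2 scale, and chr11:99024190-99024393 on the minus strand for Top2a. In Top2a the 2 matches lie far apart.
Ccnb2: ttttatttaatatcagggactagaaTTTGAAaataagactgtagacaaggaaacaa
Top2a: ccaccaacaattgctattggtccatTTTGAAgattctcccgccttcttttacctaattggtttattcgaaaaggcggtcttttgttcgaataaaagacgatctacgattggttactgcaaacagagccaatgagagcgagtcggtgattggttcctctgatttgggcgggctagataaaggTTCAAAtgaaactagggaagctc

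Among the genes that act on DNA methylation, 2 of 20 passed the test, against 5.5% of all genes. Dnmt1 (Entrez Gene 13433, chr9:20907206-20959888), which encodes the enzyme DAC traps, had 349, 377 and 436 CPM without DAC and 330.2, 354 and 397 CPM with it. The ranges overlapped and it did not pass, although it was lower in 6 of 6 pairs, with a log2 fold change of -0.10 (adjusted p = 0.175, SE 0.039). Of the 2 that passed, Uhrf1, which brings DNMT1 to hemimethylated DNA, fell (-0.21, adjusted p = 0.019, SE 0.049) and Gadd45a, a stress gene linked to demethylation, rose (0.33, adjusted p = 0.0412, SE 0.09). Hells, a chromatin remodeler needed for methylation, had -0.22 (adjusted p = 0.0576, SE 0.064). The de novo methyltransferases Dnmt3a and Dnmt3b had -0.03 and -0.06, and Tet1, Tet2 and Tet3, which oxidize methylcytosine, -0.18, 0.09 and 0.07, none of which passed. Uhrf2, Mbd1, Mbd2, Mbd3, Mbd4, Zbtb33, Zbtb4, Zbtb38, Gadd45b and Gadd45g lay between -0.15 (Mbd4) and 0.48 (Gadd45g) and did not pass either. Uhrf1 passed in 7 and Gadd45a in 4 of the 12 fits with a library left out.

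The list drawn up for uptake and metabolism of DAC also holds enzymes of other nucleotides. Of its 15 genes tested, 4 fell (2.23% of all genes did), 0 rose and 11 did not pass, with a median of 0.0014. The 4 were nucleotide enzymes that peak in S phase, and a change in the handling of DAC itself was not tested. Tk1, thymidine kinase, had 168.2, 176.69 and 201.98 CPM without DAC and 130.88, 149.9 and 160.59 CPM with it. The 6 libraries with DAC lay below the others, with a log2 fold change of -0.28 (adjusted p = 0.0137, SE 0.058). Dut, which removes dUTP, had -0.27 (adjusted p = 0.0121, SE 0.056), and the ribonucleotide reductase subunits Rrm1 and Rrm2 had -0.19 (adjusted p = 0.0438, SE 0.053) and -0.21 (adjusted p = 0.0383, SE 0.056). Rrm1 and Rrm2 passed in 5 of the 12 fits with a library left out. Of the list, 1 gene fell without SFN replicate 1 or 3, and 2 fell without control replicate 1 or 2, DAC replicate 3 or DAC+SFN replicate 1 or 2.

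Germline and cancer-testis genes are often methylated in somatic cells. Of 45 in the files, 39 were under the filter of 1 CPM in 3 libraries, and 14 of them had 0 counts in every library. Over all 39 genes, the libraries without DAC had 360 counts out of 137612750, and those with it 422 out of 130046821. None of the 6 tested passed with edgeR or with DESeq2, 0 had an unadjusted p-value under 0.05 in edgeR, and 0 of them had a library-pair direction that held in all 6 pairs. Over all genes, 80 had 0 counts in every library without DAC and counts in at least 3 with DAC. The reverse held for 36, and none of these exceeded 7 counts in a library. Low genes tended upward as a whole. The median log2 fold change was 0.21 for genes tested with a mean under 1 CPM and 0.097 for those from 1 to 5 CPM. Of 22 imprinted genes tested, 3 rose, against 3.27% of all genes, and 0 fell. Mest, a hydrolase expressed from the paternal copy, had 55.3, 70.8 and 87.5 CPM without DAC and 69.1, 92.6 and 107.7 CPM with it, overlapping between the groups, and a log2 fold change of 0.34 (adjusted p = 0.00133, SE 0.047). The non-coding RNA Kcnq1ot1 (0.60, adjusted p = 0.0101, SE 0.12) lies antisense to Kcnq1, and because no source used here gives the strand setting of the counting, reads of the pair may not be separated. Igf2r, a receptor that clears IGF2, rose by 0.19 (adjusted p = 0.0294, SE 0.049).

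Repair genes stood at a median of −0.15 on the log2 scale. Of the 42 tested, 23 had an unadjusted p-value under 0.05, all of them lower with DAC. Of all genes, 20.6% had one in either direction. After adjustment 4 fell (2.23% of all genes did), Brip1, Exo1, Rad51ap1 and Rad51c, which act in recombination and resection, by 0.30, 0.20, 0.23 and 0.34 on the log2 scale, and 0 rose. The count of repair genes was 0 without control replicate 1 or 2, DAC replicate 3, SFN replicate 1 or 3 or DAC+SFN replicate 1 or 2, and 16 without DAC+SFN replicate 3. Of 13 histone genes tested, 1 rose and 3 fell, against 3.27% and 2.23% of all genes. Hist1h2bc rose (0.70, adjusted p = 0.00292, SE 0.11) and H1f0, H2afv and H3f3b fell by 0.22, 0.31 and 0.15. Without DAC+SFN replicate 3, 4 histone genes rose, and 2 did without control replicate 3. In the collagen and matrix list, 4 of 31 rose, against 3.27% of all genes. These were Sparc, Lama5, Col7a1 and Col1a2, by 0.28, 0.31, 0.63 and 0.59. The count was 0 without SFN replicate 1, SFN replicate 3 or DAC+SFN replicate 1, 1 without control replicate 1 or 2, DAC replicate 3 or DAC+SFN replicate 2, 2 without DAC replicate 2, and 7 and 8 without control replicate 3 and DAC+SFN replicate 3. The fibroblast markers that include Col1a2 had a summed level of 19.4 to 324 CPM without DAC and of 25.1 to 376 CPM with it, nearly all of it Col1a1, and the defining markers Dcn, Lum and Thy1 had at most 3 counts. Their part in the result was not tested.

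Of 25 pigment and melanocyte genes tested, 1 rose and 0 fell, against 3.27% and 2.23% of all genes, and the median was −0.028. The gene that rose was Oca2, a melanosome ion channel gene (0.28, adjusted p = 0.00327, SE 0.046). The summed level of the 10 melanocyte markers ran from 22890 to 31250 CPM without DAC and from 22130 to 29530 CPM with it. Of 35 NRF2 targets, the antioxidant set that SFN is known to induce, 2 rose and 1 fell, against 3.27% and 2.23% of all genes. Ephx1 and Hmox1 rose by 0.21 and 0.38, and Gsta2, which has close paralogs, fell by 0.50. Of 23 chaperone genes, 2 rose, Hspb1 and Hspb8 by 0.74 and 0.21, against 3.27% of all genes. Of 25 cholesterol genes, 1 rose and 1 fell, against 3.27% and 2.23% of all genes. Pmvk, a mevalonate pathway kinase, fell by 0.28 and Hsd17b7 rose by 0.17. The counts of the NRF2, chaperone and cholesterol lists were 0 without SFN replicate 1 or SFN replicate 3, and without DAC+SFN replicate 3 there were 5 rises of NRF2 targets, 6 falls of cholesterol genes and 3 falls of pigment genes. None of 37 hypoxia and glycolysis genes and none of 57 ribosomal protein genes passed with edgeR, and DESeq2 called 1 and 0 of them. In edgeR 2 and 8 had an unadjusted p-value under 0.05, against 20.6% of all genes.

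Some genes of no list were among the clearest changes. Cpz (Entrez Gene 242939, chr5:35502218-35525626), a carboxypeptidase that binds Wnt proteins, had 6.35, 9.50 and 13.8 CPM without DAC and 13.04, 18.8 and 21.98 CPM with it and the second smallest adjusted p-value, with a log2 fold change of 0.90 (adjusted p = 2.95e-05, SE 0.081). Ccdc80 (Entrez Gene 67896, chr16:45093407-45127924), a secreted matrix protein, had 6.16, 9.54 and 11.5 CPM without DAC and 11.7, 14.96 and 20.2 CPM with it, without overlap, and a log2 fold change of 0.74 (adjusted p = 0.000637, SE 0.094). 9030617O03Rik, listed in RefSeq as Dglucy, a D-glutamate cyclase, rose by 0.65 (adjusted p = 0.000209, SE 0.07), and Tmem140, a membrane protein, by 0.83 (adjusted p = 0.000555, SE 0.10). All 4 passed with each library left out. The promoter of Tmem140 held the ISRE letters, and those of Cpz and 9030617O03Rik did not. Among the largest falls that held in all 6 pairs were Mxd3, a MAX partner (-0.44, adjusted p = 0.00605, SE 0.081), Pbk, a mitotic kinase (-0.39, adjusted p = 0.00932, SE 0.076), Cdkn3, a phosphatase of CDKs (-0.46, adjusted p = 0.0182, SE 0.11), Rgs14, a regulator of G proteins (-0.47, adjusted p = 0.0222, SE 0.11), Aff3, a nuclear protein (-0.39, adjusted p = 0.0157, SE 0.087), Itgb3bp, a centromere protein (-0.37, adjusted p = 0.0154, SE 0.081), and the PCNA-associated factor 2810417H13Rik (-0.37, adjusted p = 0.0259, SE 0.092). Pbk and Rgs14 did not overlap between the groups. Map2k6, a MAP kinase kinase (-0.45), and Ccdc13 (-0.39) completed the 10 largest falls with Gsta2. Mxd3 and Pbk passed in all 12 fits with a library left out, Aff3, Itgb3bp and Ccdc13 in 10, Cdkn3 in 9, Gsta2 in 8, Rgs14 in 7, 2810417H13Rik in 5 and Map2k6 in 4. With DESeq2, 2810417H13Rik had an adjusted p-value of 0.0548.

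The average over SFN takes the DAC effect as equal in the arms without and with SFN, which the design allows to be tested. With the 12 libraries in a 4-group model, DAC against control called 21 genes (0.18%), all higher, and DAC+SFN against SFN called 187 (1.61%), 109 higher (0.937%) and 78 lower (0.67%). Fitted on the 6 libraries of each arm alone, DAC against control called 663 genes (389 higher and 274 lower) and DAC+SFN against SFN 1267 (683 and 584). Within the 4-group model the 21 genes became 0 and 2 without control replicates 1 and 2, 11 and 8 without DAC replicates 2 and 3, 7 without SFN replicate 1, and 44 and 101 without DAC+SFN replicates 1 and 3. The 187 became 0 and 2 without SFN replicates 3 and 1, 2, 81 and 703 without DAC+SFN replicates 1, 2 and 3, 76 without control replicate 1, and 105 and 301 without DAC replicates 2 and 3. Without the replicate block each count was 0. The interaction called 0 genes, the lowest adjusted p-value being 0.748, and 683 genes (5.87%) had an unadjusted p-value under 0.05. DESeq2 also called 0 for the interaction. The 640 genes were chosen by the average of both arms, so that all of them had the same sign in each arm is no separate check. The median log2 fold change of the 380 that rose was 0.33 without SFN and 0.34 with it, and that of the 260 that fell was −0.18 and −0.26, with 396 of the 640 larger in the arm with SFN.

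By list, the interferon-stimulated genes had a median of 0.64 in each arm, and the p53 targets 0.24 without SFN and 0.20 with it. Replication genes had −0.12 and −0.23 and mitosis genes −0.16 and −0.27, but no interaction passed in these lists. Tk1 and Dut, which belong to neither of these lists, had log2 fold changes of −0.13 and −0.14 without SFN and of −0.42 and −0.40 with it. The 57 ribosomal protein genes had medians of 0.042 and −0.15, and 32 of them an unadjusted interaction p-value under 0.05. The 5 genes with the smallest interaction p-values were Sesn3, a stress sensor (0.16 on average, −0.09 without SFN and 0.40 with it), Lyst, a lysosomal trafficking gene (−0.30 and 0.20), the kinase gene Prkx (−0.13 and 0.29), 4932438A13Rik (−0.17 and 0.27) and the ubiquitin ligase gene Herc1 (−0.13 and 0.31), and none passed adjustment. SFN itself, averaged over DAC in the same fit, changed 3493 genes (30%), against 5.5% for DAC.

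**Figure D5:**
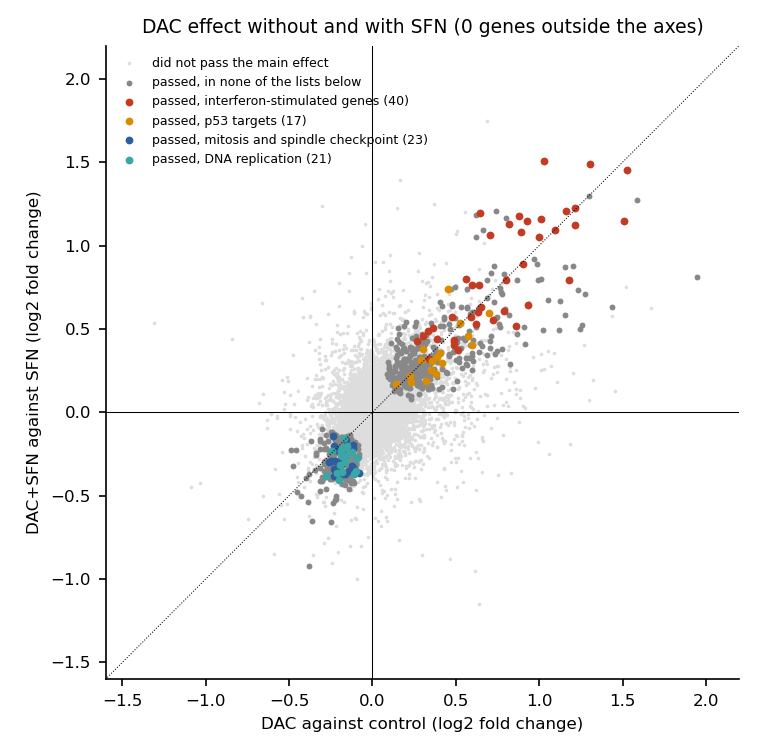
DAC against control (x axis, log2 fold change) and DAC+SFN against SFN (y axis, log2 fold change) for the 11638 genes tested, with genes that did not pass the main effect in light grey, those that did in dark grey, and 4 lists in colours; the dotted line marks equal changes. The 640 genes that passed lie toward the upper right and the lower left; they were chosen by the average of the arms.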

How the data were processed

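RNA of B16F10 cells was sequenced (stranded mRNA kit, single-end reads) in 12 libraries, 3 in each of 4 groups. The authors deposited read counts per gene symbol with no normalization. Their notes name FastQC 0.11.7, Trimmomatic 0.38, TopHat2 2.1.1 and HTSeq on mm10, and reads with a single placement on known genes were kept. The annotation and the strand setting of the counting are not given in the sources used here.

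A gene was tested when 3 or more of the 12 libraries reached 1 CPM (11638 of 24421 genes), with glmQLFTest in edgeR 4.0.16 (legacy fit, TMM scaling, R 4.3.3), in a model of SFN status, replicate number and DAC. Tests were two-sided with Benjamini-Hochberg adjustment over all genes tested. A prior count of 0.125 enters each log2 fold change, whose SE was taken as its size over the square root of F. The arms without and with SFN and the interaction came from a 4-group model with the same block. The replicate number was kept as a block because all 18 correlations between same-numbered libraries, after the group means were removed, were above 0.1 (0.270 to 0.732), and the study's methods correct for a batch. The library numbers in the labels run with the replicate number (1 to 4, 5 to 8 and 11 to 14), so a library batch and the replicate cannot be told apart. No library was a copy of another, as the chi-square between replicates was 13.6 to 37.5 per gene.

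Named genes were the 15 largest rises and 10 largest falls that held in all 6 pairs, the 10 smallest adjusted p-values, up to 6 changed members per list with members needed to describe a list, the 5 smallest interaction p-values, and the DNA methylation genes. Members and lists were chosen with earlier results of these data known. Alternatives used DESeq2 1.42.0, edgeR's version 4 and robust fits, RLE scaling, other filters and prior counts, no block, glmTreat and left-out libraries. Positions and promoters are from RefSeq (GRCm38.p6). Python 3.11.15 with matplotlib 3.10.9 drew the figures. Results for some single genes are not reported here, though these genes stay in all fits and list counts.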

Additional observations from a re-analysis of the deposited data

Results flagged for a closer look

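This check covered 114 of the genes named. In each, the highest and lowest of the 6 libraries with DAC and of the 6 without it were compared with the other 5. Dixon's test at the 95% level was used, and the total counts were treated likewise. Of 230 groups of 6 tested, 16 held a library that stood apart, where chance gives about 1 in 20. The groups mix libraries without and with SFN.

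Control replicate 3 stood above the other libraries without DAC in 4 interferon-stimulated genes, Ifi203 (1.23 CPM, median of the 6 libraries 0.256), Igtp (8.68 CPM, median 3.27), Oas2 (3.39 CPM, median 1.05) and Usp18 (10.6 CPM, median 3.81). DAC replicate 3 stood above the other libraries with DAC in Oas1g (6.63 CPM, median 1.91) and Oas2 (8.80 CPM, median 1.48).

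SFN replicate 2 stood apart from the other libraries without DAC in 5 genes. It was high in 9030617O03Rik (40.2 CPM, median 27.0), Col7a1 (9.56 CPM, median 3.12), Hmox1 (278 CPM, median 151) and Sparc (3550 CPM, median 1636), and low in Aff3 (24.5 CPM, median 43.9).

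Control replicate 2 was high in Cdc45 (87.3 CPM, median 74.1), Lig1 (207 CPM, median 176) and Uhrf1 (506 CPM, median 429), genes that fell with DAC. Among the libraries with DAC, DAC+SFN replicate 1 was high in Hsd17b7 (53.7 CPM, median 47.6) and DAC+SFN replicate 2 in Lif (23.6 CPM, median 6.95).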

How the results depend on the processing

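The 640 genes changed became 1 without the replicate block, 33 and 139 without all libraries of replicate numbers 1 and 2, and 197 to 1163 without a single library. Without replicate number 3 there were 592, and other filters, fits and scalings gave 607 to 821. The 18 genes above 2-fold became 11 with DESeq2, 9 with at least 10 counts in every library, 0 without the block, 9 and 6 without replicate numbers 1 and 3, 8 to 24 without a single library, and 0 with glmTreat, which tests the fold change itself against 2. DAC against control gave 83 genes with DESeq2, 0 without the block, 663 from its 6 libraries alone and 0 to 101 without a single library. DAC+SFN against SFN gave 404, 0, 1267 and 0 to 703 in the same order. The interaction gave 0 genes under all 14 alternatives run for it. The cause was not tested.

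The checks of single genes covered 114 of the genes named. They left out some named only to describe a list, such as Irf1, Bax and Pttg1. Of the 114 genes, 92 had passed. Of these 92, 49 passed in all 12 fits with a library left out, and 1 without the block. Among the 114 genes, a sign changed only in 4 near 0 that had not passed. With a library left out in turn, the log2 fold change lay between −0.11 and 0.017 for Lyst, −0.015 and 0.094 for 4932438A13Rik, −0.15 and 0.027 for Dnmt3b and −0.062 and 0.0063 for Mbd3, and without all libraries of replicate number 1 Dnmt3b had 0.0207. DESeq2 gave no adjusted p-value for Trim30d, Ifi203 and Ces2e. A gene at 1 CPM had 15.9 to 27.3 counts, so changes of low genes carry wide errors.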
